A study of Homo sapiens with 18 samples.

Results

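The genes described here encode proteins that choose splice sites and the kinases that control them. They were taken as every protein-coding gene whose symbol belongs to 1 of 6 families, which gave 52 of the 60623 genes in the table. The families are 12 SR proteins (SRSF1 to SRSF12), the 2 SR-like proteins TRA2A and TRA2B, 27 hnRNP genes (symbols starting with HNRNP), the 4 kinases CLK1 to CLK4, the 2 kinases SRPK1 and SRPK2, and 5 RNA-binding proteins (RBM3, RBM5, RBM10, RBM25 and RBM39). Isoforms were assigned to genes by GENCODE release 29, in which the 52 genes have 626 isoforms of the deposited table, 569 of them with a count.

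RNA was sequenced from HEK-293E cells, a line derived from human embryonic kidney that grows in culture, so the results describe 1 cell line and no tissue. Cells of all 6 groups were first starved overnight in medium with little serum. The groups were starved cells with and without Torin1, cells fed for 1 h with and without Torin1, and cells fed for 4 h with and without Torin1, each with 3 libraries. Feeding meant a return to regular growth medium, and Torin1 is an inhibitor of the kinase mTOR whose dose and duration the labels leave out. The labels do not say whether replicate libraries came from separate cultures, so a p-value here reflects only how these libraries vary, which may be technical.

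SR proteins bind exons and recruit the splicing machinery through a tail rich in arginine and serine, while hnRNPs coat nascent RNA and often keep splice sites from being used. CLK and SRPK kinases phosphorylate the tails of SR proteins and so set where these proteins sit in the cell and how they bind RNA. Many genes of these families make, beside the coding mRNA, isoforms that cannot be translated in full, either because an extra exon brings an early stop codon (a poison exon, which sends the RNA to nonsense-mediated decay) or because an intron is kept. Through these isoforms such proteins are known to limit their own level. mTOR is the kinase that couples nutrients and growth factors to protein synthesis and growth.

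Stretches that separate non-coding from coding isoforms in RBM39, SRSF6, SRSF7, TRA2B and SRSF3 are shown. Isoform results below refer to all of them but the SRSF3 exon, which was not followed further. Each was read from the GENCODE release 29 transcripts (GRCh38; the build behind the deposited tables is not given in the sources used here), 5′ to 3′ along the transcript, as the part of the stretch that the annotation translates, from the first base of the stretch to its stop codon. Capitals mark that stop codon.
RBM39 exon of 73 bases in RBM39-206 and RBM39-216 (chr20:35740525-35740597, minus strand): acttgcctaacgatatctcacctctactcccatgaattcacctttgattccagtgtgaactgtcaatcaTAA
RBM39 exon of 72 bases in RBM39-212 (chr20:35734186-35734257, minus strand): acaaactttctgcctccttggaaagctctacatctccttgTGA
SRSF6 exon of 268 bases in SRSF6-202 (chr20:43459153-43459420, plus strand): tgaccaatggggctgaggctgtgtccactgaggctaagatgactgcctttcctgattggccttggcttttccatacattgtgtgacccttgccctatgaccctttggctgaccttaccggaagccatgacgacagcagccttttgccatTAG
SRSF7 exon of 449 bases in SRSF7-204 (chr2:38748898-38749346, minus strand): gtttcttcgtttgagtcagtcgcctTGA
SRSF7 stretch of 875 bases in SRSF7-208 (chr2:38748654-38749528, minus strand): gtatttatttTAA
TRA2B exon of 276 bases in TRA2B-206 (chr3:185931577-185931852, minus strand): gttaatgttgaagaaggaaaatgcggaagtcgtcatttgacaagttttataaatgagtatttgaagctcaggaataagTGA
SRSF3 exon of 456 bases in SRSF3-203 (chr6:36599821-36600276, plus strand): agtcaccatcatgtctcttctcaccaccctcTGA
The stretches differ in how soon the stop codon ends: after 13 bases in SRSF7-208 and after 152 in SRSF6-202.

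Library totals ranged from 10510689 to 13690035 counts. Of the 52 genes, 48 passed the filter on low counts; HNRNPCL2, HNRNPCL3 and HNRNPCL4 had no count in any library, and HNRNPCL1 was too low to test. In TPM, a scale corrected for transcript length and library size, HNRNPA1 stood highest with a mean of 3745 over 18 libraries, followed by HNRNPA2B1 at 1403 and HNRNPC at 1296, while CLK4 averaged 15.5 and SRSF12 6.94. The 6 markers of the kidney line each averaged 1 CPM or more over the 18 libraries (CPM, counts scaled to library size), though PAX2 was at 0.878 CPM in its lowest group, and their summed level was 1394, 1540 and 1527 CPM in the starved, 1 h fed and 4 h fed groups with Torin1, against 998, 973 and 924 CPM without it. The kidney-line sum was mostly VIM, which ran from 565 to 1299 CPM over the groups, so it does not show how the other markers moved. Summed markers of immune cells stayed between 1.67 and 4.15 CPM over the groups, of fibroblasts between 11.9 and 20.8 CPM and of endothelial cells between 0.0585 and 0.609 CPM, and none of these markers was at 0 in every library. In bulk RNA, fewer cells of a type and less RNA per cell cannot be told apart.

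Torin1 moved most of these genes in every feeding state. More SR proteins fell than rose, and hnRNPs moved in both directions. With Torin1 in starved cells, 15 of the 48 tested genes were higher and 23 lower (edgeR quasi-likelihood test, adjusted p under 0.05 over all 16414 genes tested), against a background of 63.5% of all genes called. In 1 h fed cells 15 were higher and 24 lower, against 63.1% of all genes, and in 4 h fed cells 6 were higher and 28 lower, against 56.0%. The median log2 fold change of the 48 genes was −0.17, −0.17 and −0.28 in the starved, 1 h fed and 4 h fed state, beside 0.09, 0.06 and 0.02 over all genes tested. Scaling by total counts in place of the trimmed mean moved the median of all genes to 0.23, 0.17 and 0.19 and the calls to 18 higher and 17 lower, 18 and 16, and 12 and 20, but no gene was called in opposite directions under the scalings. The same call in all 3 states was made for 4 genes that were higher (HNRNPA1, HNRNPA1L3, HNRNPH3 and HNRNPLL) and 21 that were lower. The share of all genes with the same call in all 3 states was not computed. With scaling by total counts, some of the 21 did not keep the call in every state. These were RBM39, HNRNPD, SRSF2, CLK3, HNRNPC, HNRNPR, HNRNPH2, HNRNPA0, HNRNPUL1 and SRSF10.

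**Figure D1:**
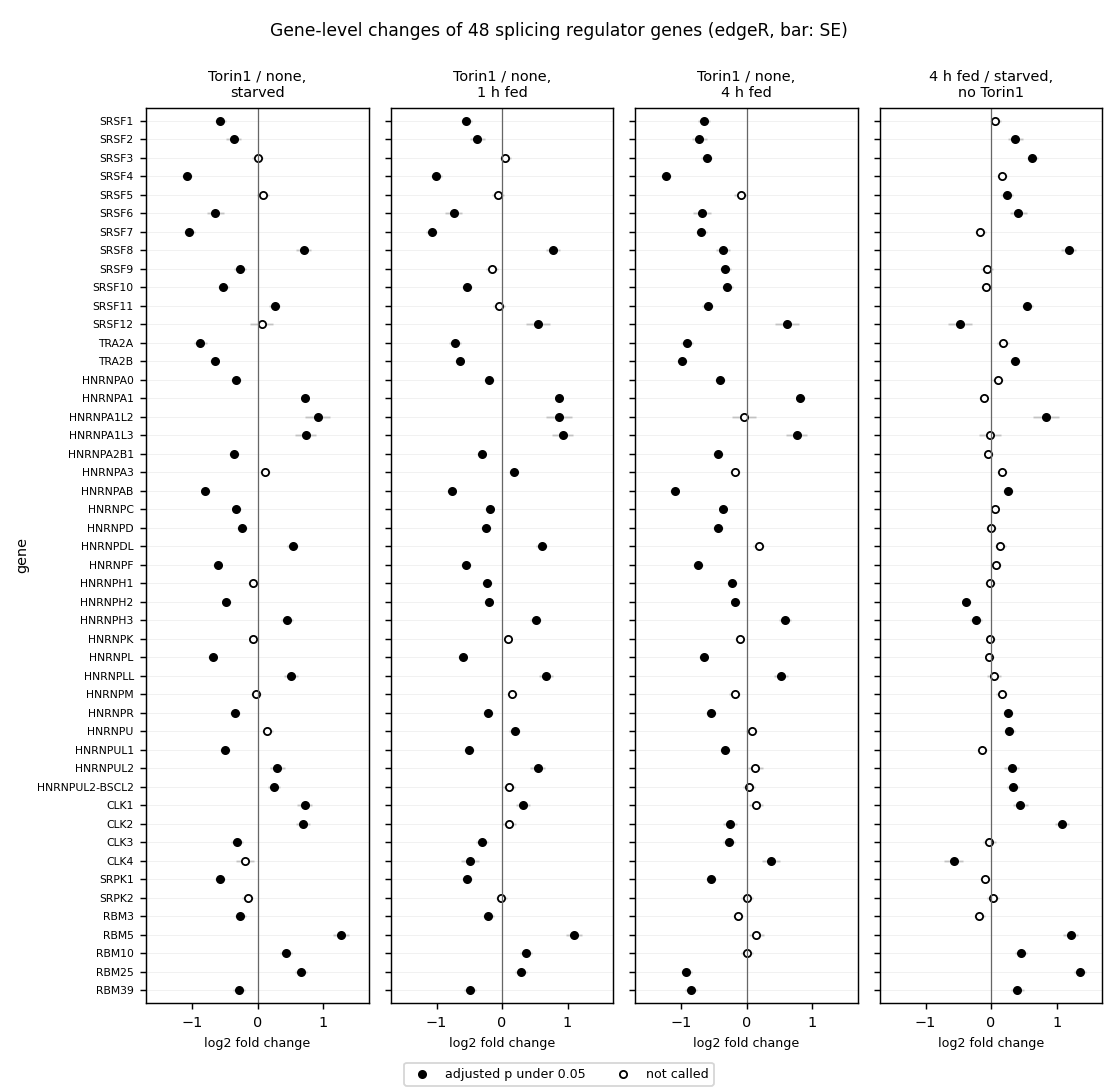
Log2 fold changes of the 48 tested genes (horizontal axis, bar SE) with Torin1 over without it in each of the 3 states, and in 4 h fed over starved cells without Torin1; filled points have an edgeR adjusted p under 0.05. SRSF4 is the lowest point in starved and 4 h fed cells with Torin1, at −1.08 and −1.24, while RBM25 is the highest with 4 h feeding, at 1.36.

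Among the SR proteins, 7 of 12 fell and 2 were higher with Torin1 in starved cells, 6 fell and 2 were higher in 1 h fed cells, and 10 fell and 1 was higher in 4 h fed cells. Their median log2 fold change was −0.31, −0.27 and −0.60 in these states. With scaling by total counts, 5 fell and 3 were higher, 6 fell and 2 were higher, and 7 fell and 1 was higher, with medians of −0.18, −0.15 and −0.44. SRSF4 (ENSG00000116350, chr1:29147743-29181987, minus strand, GRCh38), an SR protein that regulates alternative exons, had 152, 163 and 154 CPM in starved cells with Torin1, against 315, 347 and 328.5 CPM in starved cells without it. Every library with Torin1 was below every library without it, with −1.08 ± 0.08 (SE) as the log2 fold change (edgeR adjusted p = 4.47e-13). In 1 h fed cells SRSF4 had 156, 170 and 172 CPM with Torin1 and 308, 321 and 371 CPM without it. With 4 h of feeding it had 158, 168 and 148 CPM with Torin1 and 363, 382 and 369 CPM without it, a log2 fold change of −1.24 ± 0.08 (edgeR adjusted p = 7.89e-14). The 9 libraries with Torin1 thus spanned 148 to 172 CPM whatever the feeding state.

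SRSF7, which also takes part in mRNA export, had 153, 142 and 154 CPM in starved cells with Torin1, against 278, 314 and 333 CPM without it. The groups did not overlap, and the log2 fold change was −1.04 ± 0.08 (edgeR adjusted p = 3.39e-12). With 4 h of feeding SRSF7 had 172, 170 and 169 CPM with Torin1 and 264, 266 and 295 CPM without it, a smaller gap of −0.69 ± 0.08 (adjusted p = 2.41e-08). SRSF1, the best studied SR protein, fell by 0.57, 0.55 and 0.65 on the log2 scale with Torin1 in the 3 states, starved to 4 h fed, and SRSF6 fell by 0.64, 0.74 and 0.68. SRSF8, a retrogene close in sequence to SRSF2, went the other way in starved cells: it had 54.0, 50.01 and 54.1 CPM with Torin1, against 28.8, 34.3 and 33.8 CPM without it (adjusted p = 2.22e-06). Fed for 4 h, cells had less SRSF8 with Torin1, at 56.1, 61.9 and 53.35 CPM, than without it, at 74.5, 65.45 and 80.75 CPM (log2 fold change −0.37 ± 0.11, edgeR adjusted p = 0.00431), a call lost with scaling by total counts. Its levels without Torin1 changed between the states, while the 9 libraries with Torin1 lay between 50.01 and 61.9 CPM. Reads of SRSF8 and SRSF2 may be shared in counting, so the level of SRSF8 is uncertain.

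Both TRA2 genes, which promote exons with purine-rich sequences, fell in all 3 states, also with scaling by total counts. TRA2A had 62.4, 63.8 and 58.4 CPM in starved cells with Torin1, against 106, 114 and 118 CPM without it. The groups were apart by a log2 fold change of −0.87 ± 0.09 (edgeR adjusted p = 1.78e-09), and in 4 h fed cells the value was −0.91 ± 0.09. TRA2B had 158.5, 151 and 152 CPM in 4 h fed cells with Torin1, against 313, 302 and 299 CPM without it. Again no libraries overlapped, at a log2 fold change of −0.98 ± 0.07 (adjusted p = 1.97e-12).

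The 23 tested hnRNP genes split. With Torin1, 8 were higher and 10 lower in starved cells, 9 higher and 11 lower in 1 h fed cells, and 4 higher and 11 lower in 4 h fed cells. The balance depended on the scaling: with total counts, 10 were higher and 9 lower, 12 and 5, and 8 and 8, and the family median in starved cells was 0.07 in place of −0.06. HNRNPA1, the most abundant of all 52 genes, had 3620, 3597 and 3678 CPM in starved cells with Torin1, against 2302, 2146 and 2150 CPM without it. After 4 h of feeding the levels were 3649, 3704 and 3418 CPM with Torin1 and 2149, 1927 and 2020 CPM without it. Libraries with Torin1 were the higher ones in each state, with log2 fold changes of 0.72 ± 0.07, 0.87 ± 0.07 and 0.82 ± 0.07 (edgeR adjusted p = 8.07e-11, 1.83e-12 and 1.33e-11). The near copies HNRNPA1L2 and HNRNPA1L3 rose by 0.92 ± 0.19 and 0.74 ± 0.16 in starved cells, but reads from HNRNPA1, these copies and its pseudogenes can be split in counting, so their separate values are uncertain.

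HNRNPAB, an hnRNP close to HNRNPD, showed the largest fall of the family in each state. It had 454.5, 402 and 411 CPM in starved cells with Torin1, against 711, 742 and 750 CPM without it. With 4 h of feeding it had 422, 403 and 405 CPM with Torin1 and 961, 799 and 878 CPM without it. The groups were apart in both states, with log2 fold changes of −0.80 ± 0.07 and −1.10 ± 0.07 (edgeR adjusted p = 5.43e-11 and 1.8e-13). HNRNPL, which binds CA repeats, fell by 0.68, 0.60 and 0.66 on the log2 scale in the starved, 1 h fed and 4 h fed state, and HNRNPF, which binds G-rich runs, fell by 0.61, 0.55 and 0.74. HNRNPK and HNRNPM passed the test in none of the 3 states, but with scaling by total counts both were called in 1 h fed cells; the log2 fold changes of HNRNPK were −0.06, 0.09 and −0.11.

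Of the kinases, SRPK1, which acts on SR proteins mainly in the cytoplasm, fell in every state, by 0.57, 0.53 and 0.54 on the log2 scale (edgeR adjusted p = 1.18e-07, 4.48e-07 and 4.96e-07), while SRPK2 was not called. CLK3 was also lower in each state, by −0.31 to −0.27, though with scaling by total counts it was called in none of them. CLK1, a nuclear kinase of SR proteins, rose by 0.72 ± 0.11 in starved cells with Torin1 (adjusted p = 1.24e-06). CLK2 had 78.5, 92.9 and 89.8 CPM in starved cells with Torin1, against 45.5, 57.5 and 57.6 CPM without it, and in 4 h fed cells 86.6, 97.2 and 101 CPM with Torin1, against 113, 98.3 and 127 CPM without it. It was thus higher with Torin1 in starved cells (0.70 ± 0.11, adjusted p = 1.36e-06) and lower in 4 h fed cells, where the libraries overlapped (−0.25 ± 0.10, adjusted p = 0.0409). The second call was lost without 4 h fed Torin1 replicate 1 or 2 or 4 h fed replicate 1 or 3 (adjusted p 0.0621 to 0.227), with scaling by total counts, with no filter and in the fit of only the groups compared (up to 0.491). CLK4 rose by 0.38 ± 0.14 with Torin1 in 4 h fed cells, with overlapping libraries, and this call was lost without 4 h fed Torin1 replicate 2 or 3 or 4 h fed replicate 1 or 2 (0.0534 to 0.162).

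The RBM genes split by feeding state. RBM39 (ENSG00000131051, chr20:35701347-35742312, minus strand), a splicing factor related to U2AF2, had 215, 271 and 252 CPM in starved cells with Torin1, against 272, 310 and 316 CPM without it. Fed for 4 h, cells had 208, 232 and 218 CPM with Torin1 and 389, 416 and 383 CPM without it. Its log2 fold change was −0.28 ± 0.09 in starved cells, a call that was lost without starved Torin1 replicate 1 (adjusted p = 0.0906) and with scaling by total counts, −0.49 ± 0.09 in 1 h fed cells and −0.85 ± 0.09 in 4 h fed cells (edgeR adjusted p = 0.00959, 4.9e-05 and 8.13e-09). RBM25, which binds exons and U1-associated proteins, had 143, 154.6 and 142.6 CPM in starved cells with Torin1, against 92.03, 94.25 and 92.8 CPM without it, and was higher in every library with Torin1 (0.66 ± 0.09, adjusted p = 2.31e-07). After 4 h of feeding it had 114.5, 146.5 and 117 CPM with Torin1, against 216, 254.5 and 244 CPM without it, and was lower in every library with Torin1 (−0.92 ± 0.09, adjusted p = 5.34e-10). RBM5, a regulator of alternative splicing in apoptosis genes, had 106, 155 and 145 CPM in starved cells with Torin1, against 52.6, 54.1 and 60.2 CPM without it. This rise of 1.28 ± 0.12 was the largest of the 48 genes (edgeR adjusted p = 1.04e-09), whereas in 4 h fed cells RBM5 differed by 0.15 ± 0.12 (adjusted p = 0.293).

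**Figure D2:**
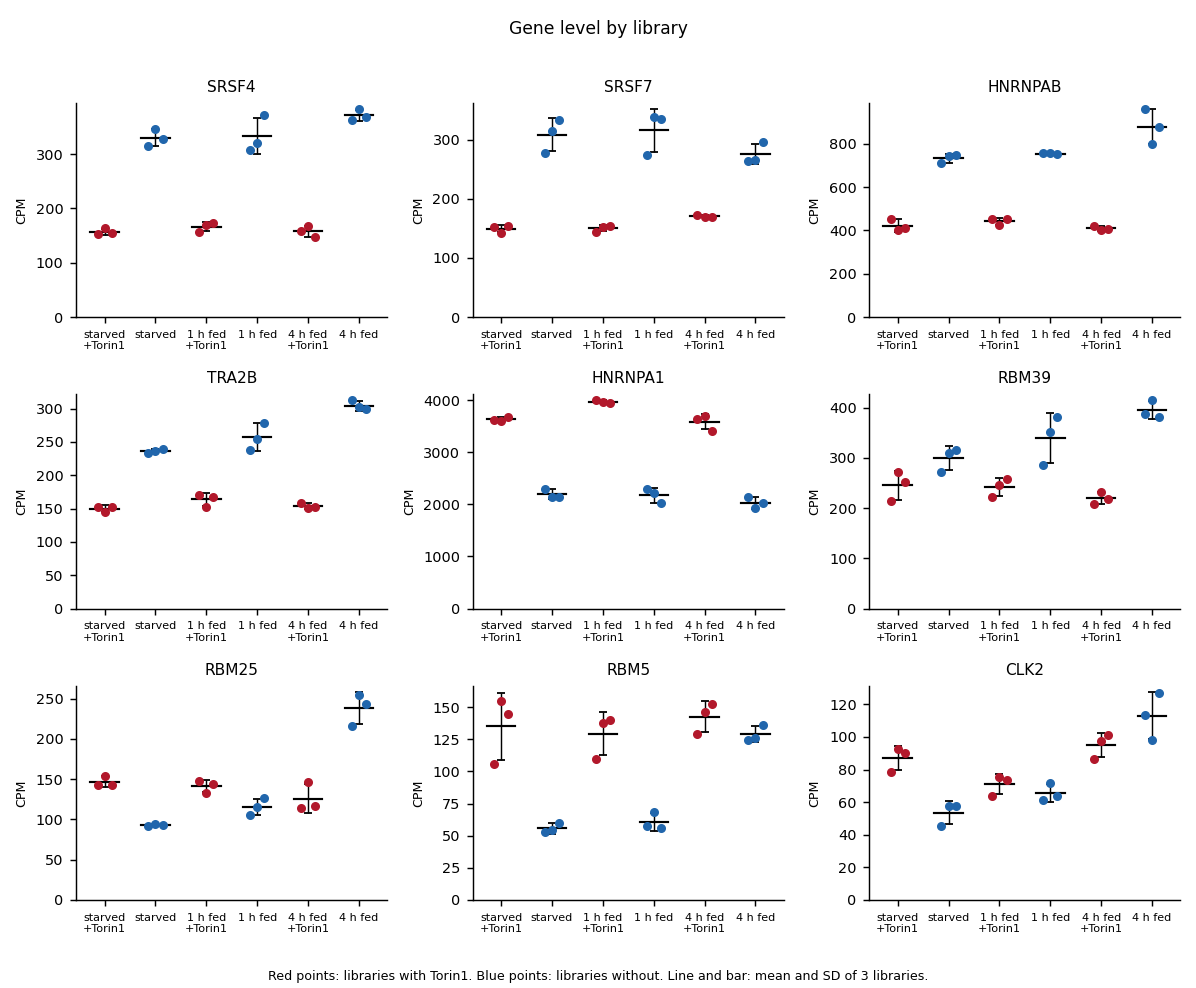
Gene level in CPM (vertical axes from 0) of 9 genes in each library of the 6 groups, libraries with Torin1 left of those without; the line and bar are the mean and SD of 3 libraries. SRSF4 stays at 148 to 172 CPM in all libraries with Torin1, HNRNPA1 is the gene with the highest level, and RBM25 and RBM5 in 4 h fed cells without Torin1 stand above starved cells.

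Feeding for 1 h moved none of these genes past the test. With and without Torin1, 1 h feeding gave 0 of 48 calls, against backgrounds of 0.402% and 0.646% of all genes; 10 and 5 genes had an unadjusted p under 0.05, and DESeq2 and limma-voom also called 0. Feeding for 4 h without Torin1 raised 19 genes and lowered 4, against a background of 42.3%; the calls were 18 and 7 with DESeq2 size factors. By family, 6 SR proteins were higher and 1 lower, 6 hnRNPs higher and 2 lower, and 4 of 5 RBM genes higher. RBM25 rose most, at 216, 254.5 and 244 CPM in 4 h fed cells, against 92.03, 94.25 and 92.8 CPM in starved cells (log2 fold change 1.36 ± 0.09, edgeR adjusted p = 2.97e-13). RBM5 rose by 1.21 ± 0.12, SRSF8 by 1.19 ± 0.11, CLK2 by 1.08 ± 0.11 and HNRNPA1L2 by 0.84 ± 0.20.

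SRSF3, a small SR protein with roles in splicing and mRNA export, had 688, 679 and 621 CPM in 4 h fed cells, against 384, 432 and 467 CPM in starved cells. The groups were apart, at a log2 fold change of 0.63 ± 0.08 (edgeR adjusted p = 1.84e-07), and SRSF11 was also higher, by 0.55 ± 0.09. CLK4 had the largest fall, with 16.1, 15.6 and 16.96 CPM in 4 h fed cells, against 20.4, 25.4 and 26.4 CPM in starved cells (−0.57 ± 0.14, adjusted p = 0.00151). SRSF4, by contrast, had a log2 fold change of 0.17 ± 0.08 that missed the threshold (adjusted p = 0.0735).

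Under Torin1, 4 h feeding gave 0 of 48 calls in edgeR and in limma-voom, against a background of 1.80%; 9 genes had an unadjusted p under 0.05, and DESeq2 called SRSF11. The difference between the 2 feeding responses was tested as the interaction of 4 h feeding and Torin1. It called 3 genes with a higher and 13 with a lower response under Torin1, against a background of 25.8%. Over all genes tested, 1599 had a higher and 2634 a lower response. RBM25 differed most: its log2 fold change with feeding was −0.22 ± 0.09 with Torin1 and 1.36 ± 0.09 without it, a difference of −1.58 ± 0.13 (edgeR adjusted p = 7.08e-11). RBM5 differed by −1.13 ± 0.17, SRSF8 by −1.07 ± 0.15, CLK2 by −0.95 ± 0.15, SRSF11 by −0.86 ± 0.12, SRSF3 by −0.61 ± 0.11 and RBM39 by −0.57 ± 0.13. SRSF4, whose feeding responses were 0.01 ± 0.08 with Torin1 and 0.17 ± 0.08 without it, did not pass (−0.16 ± 0.11, adjusted p = 0.311).

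The split between coding and non-coding isoforms was followed as the non-coding share: the percentage of a gene's isoform counts in isoforms annotated as anything but protein coding, mostly decay, retained-intron and processed transcripts. In 40 of the 52 genes both classes had enough counts to test; of these genes' counts, isoforms matched to the annotation held 91.1% in SRSF6 and 99.7% in RBM39. With Torin1 in starved cells the share was higher in 10 genes and lower in 5 (edgeR test of isoform classes), against a background of 4.73% of 7331 genes. In 1 h fed cells 3 were higher and 5 lower, against 7.28%, and in 4 h fed cells 6 were higher and 3 lower, against 3.86%. The balance depended on the processing. With isoform counts divided by transcript length, 5 were higher and 4 lower in starved cells. In 4 h fed cells 2 were then higher and 3 lower. Here and below, shares by transcript length were tested with limma on log2 ratios, so the scale and the test changed together. On undivided counts, limma on log2 ratios gave 8 higher and 4 lower in starved cells and 3 and 3 in 4 h fed cells. Without starved Torin1 replicate 2 or 3 the starved count was 9, and without 1 h fed Torin1 replicate 3 the 1 h count was 5. The genes had a median mean count of 3116, beside 551 over all genes tested for the share, so they were counted more deeply than most. Over all genes 116 shares were higher and 231 lower in starved cells, 70 and 464 in 1 h fed cells, and 74 and 209 in 4 h fed cells. Most calls over all genes were thus lower in each state, while among these genes most were higher in starved and 4 h fed cells and lower in 1 h fed cells. Over whole libraries retained-intron isoforms held 3.85%, 3.26% and 3.62% of counts in the starved, 1 h fed and 4 h fed groups with Torin1, against 3.49%, 3.66% and 3.65% without it, and decay isoforms 2.43%, 2.40% and 2.50% against 2.71%, 2.70% and 2.68%. Starved Torin1 replicate 1 had the lowest retained-intron percentage of its group, 3.45%, against 4.17% and 3.94%. It also had the lowest share of its group in SRSF4, SRSF7, SRSF11, RBM25 and RBM39. Replicate 1 had the lowest retained-intron percentage in starved cells without Torin1 too (3.43%). The same held in 1 h fed cells with and without Torin1 (3.06% and 3.36%) and in 4 h fed cells with Torin1 (3.27%). In 4 h fed cells without Torin1 replicate 2 was lowest (3.35%). The part of these differences in the results was not tested.

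**Figure D3:**
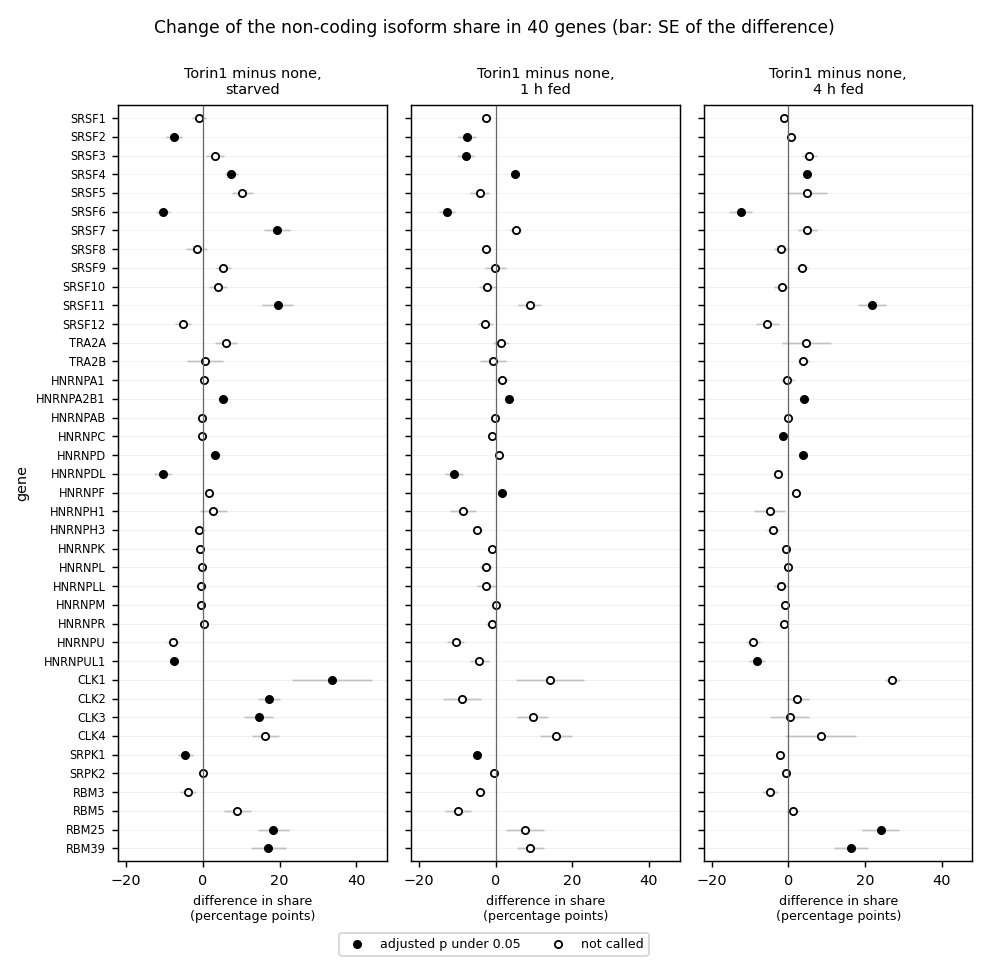
Difference in the non-coding share, in percentage points (horizontal axis, bar SE), with Torin1 minus without it in each of the 3 states for the 40 tested genes; filled points have an edgeR adjusted p under 0.05. SRSF4 and HNRNPA2B1 lie to the right and SRSF6 to the left in all 3 panels.

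The share of SRSF4 was 7.18%, 13.3% and 10.7% in starved cells with Torin1, against 2.65%, 2.92% and 3.16% without it. In 1 h fed cells it was 7.66%, 8.99% and 7.34% with Torin1 and 2.59%, 3.67% and 2.79% without it. After 4 h it was 6.74%, 9.39% and 9.71% with Torin1 and 3.02%, 4.72% and 3.304% without it. No library with Torin1 overlapped one without it in any state (edgeR adjusted p = 3.84e-06, 0.000362 and 0.00394). Divided by transcript length, however, the shares averaged 8.56% ± 2.52 with Torin1 and 3.76% ± 0.67 without it in starved cells. In 4 h fed cells they averaged 8.07% ± 2.04 and 5.63% ± 2.68 (SD, n = 3 each). Neither difference passed limma on log2 ratios (adjusted p = 0.054 and 0.382). The 4 h call was also lost with decay isoforms counted as coding. Most of the added share lay in retained-intron isoforms, at 8.17% ± 2.81 with Torin1 and 2.44% ± 0.32 without it in starved cells (SD, n = 3 each). The coding isoform SRSF4-201 averaged 141 CPM in starved cells with Torin1 and 295 CPM without it, while SRSF4-208, which keeps intron sequence, averaged 12.4 and 6.07 CPM.

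In SRSF7 the share was 25.9%, 36.5% and 33.9% in starved cells with Torin1, against 11.2%, 11.9% and 15.3% without it (adjusted p = 8.37e-07), a call lost with decay isoforms counted as coding (0.787). It also stood at 21.6%, 17.2% and 21.5% in 4 h fed cells without Torin1, above each starved library, and Torin1 in 4 h fed cells made no call (25.02% with Torin1, 20.1% without it; adjusted p = 0.319). Nearly all of it was decay isoforms, which in starved cells held 31.5% ± 5.56 of counts with Torin1 and 12.4% ± 2.29 without it (SD, n = 3 each). The 4 isoforms with the 449-base exon printed above together held 31.4% with Torin1 and 12.2% without it. Among these 4 are the 2 isoforms with the 875-base stretch of SRSF7-208, which spans that exon. These 2 held 25.6% with Torin1 and 9.72% without it, so most of the sum lay in the longer stretch. In SRSF7-208 the annotated stop codon ends after 13 bases of that stretch. The sums over isoforms are a description and were not tested. The isoform SRSF7-204 averaged 13.2 CPM in 4 h fed cells, against 2.19 CPM in starved cells (edgeR adjusted p of its use = 0.0477). The call on the SRSF7 share with 4 h feeding (adjusted p = 0.0401) was lost without any of 9 of the 18 libraries (0.0506 to 0.188), with decay isoforms as coding, by transcript length, with limma, with DESeq2 and in the fit of only the groups compared (up to 0.981).

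SRSF11, a nuclear speckle protein, had a share of 31.3%, 44.7% and 37.02% in starved cells with Torin1, against 16.03%, 17.8% and 20.6% without it (adjusted p = 0.000116). Its non-coding counts sat mostly in SRSF11-214, a processed transcript, which averaged 91.2 CPM with Torin1 and 31.5 CPM without it in starved cells. In 4 h fed cells it averaged 82.4 and 46.95 CPM, with overlapping libraries, while the gene level was lower with Torin1 (log2 fold change −0.595). As a part of the gene's counts, SRSF11-214 held 29.2% with Torin1 and 12.4% without it there, without overlap. The SRSF11 share was called higher in 4 h fed cells as well (edgeR adjusted p = 9.95e-05). In SRSF6 the share moved the other way: it was 16.9%, 21.8% and 21.2% with Torin1 in starved cells, against 29.8%, 32.2% and 29.3% without it. It averaged 15.9% ± 1.19 with Torin1 and 28.6% ± 3.19 without it in 1 h fed cells, and 17.6% ± 2.37 with Torin1 and 29.96% ± 4.62 without it in 4 h fed cells (SD, n = 3 each). These shares are those of SRSF6-202 alone, the isoform with the 268-base exon, and it had the lower value in every library with Torin1 (adjusted p = 0.0448, 0.00205 and 0.00731). The starved call was lost without any of 11 of the 18 libraries (0.0514 to 0.158), and the 4 h call without 4 h fed Torin1 replicate 2 (0.0547).

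SRSF2, which like SRSF7 controls its own mRNA through decay, had a share of 9.97% ± 1.58 in starved cells with Torin1 and 17.6% ± 3.35 without it. It was 7.73% ± 0.97 and 15.2% ± 3.93 in 1 h fed cells (SD, n = 3 each; edgeR adjusted p = 0.0046 and 0.000782). The decay isoform SRSF2-208 had 32.3, 13.8 and 18.04 CPM in starved cells with Torin1, against 69.5, 64.5 and 60.5 CPM without it, and stayed lower in every library with Torin1 in the fed states. Counted with decay isoforms as coding, the SRSF2 change with Torin1 in starved cells was 0.27 on the log2 scale in place of −0.91, and the 1 h call was lost (adjusted p = 0.869). By transcript length the starved call was lost as well. With 4 h feeding the SRSF2 share was 10.7% in fed cells, against 17.6% in starved cells (adjusted p = 0.0493), a call lost without any of 13 of the 18 libraries (0.051 to 0.26) and in 5 other alternatives (up to 0.998). SRSF3 was lower at 1 h, with 27.7% in cells with Torin1 and 35.5% without it (adjusted p = 0.0367). The 4 isoforms with the 276-base exon of TRA2B held 31.2%, 33.7% and 32.7% of counts with Torin1 in the 3 states and 33.2%, 33.4% and 29.6% without it.

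**Figure D4:**
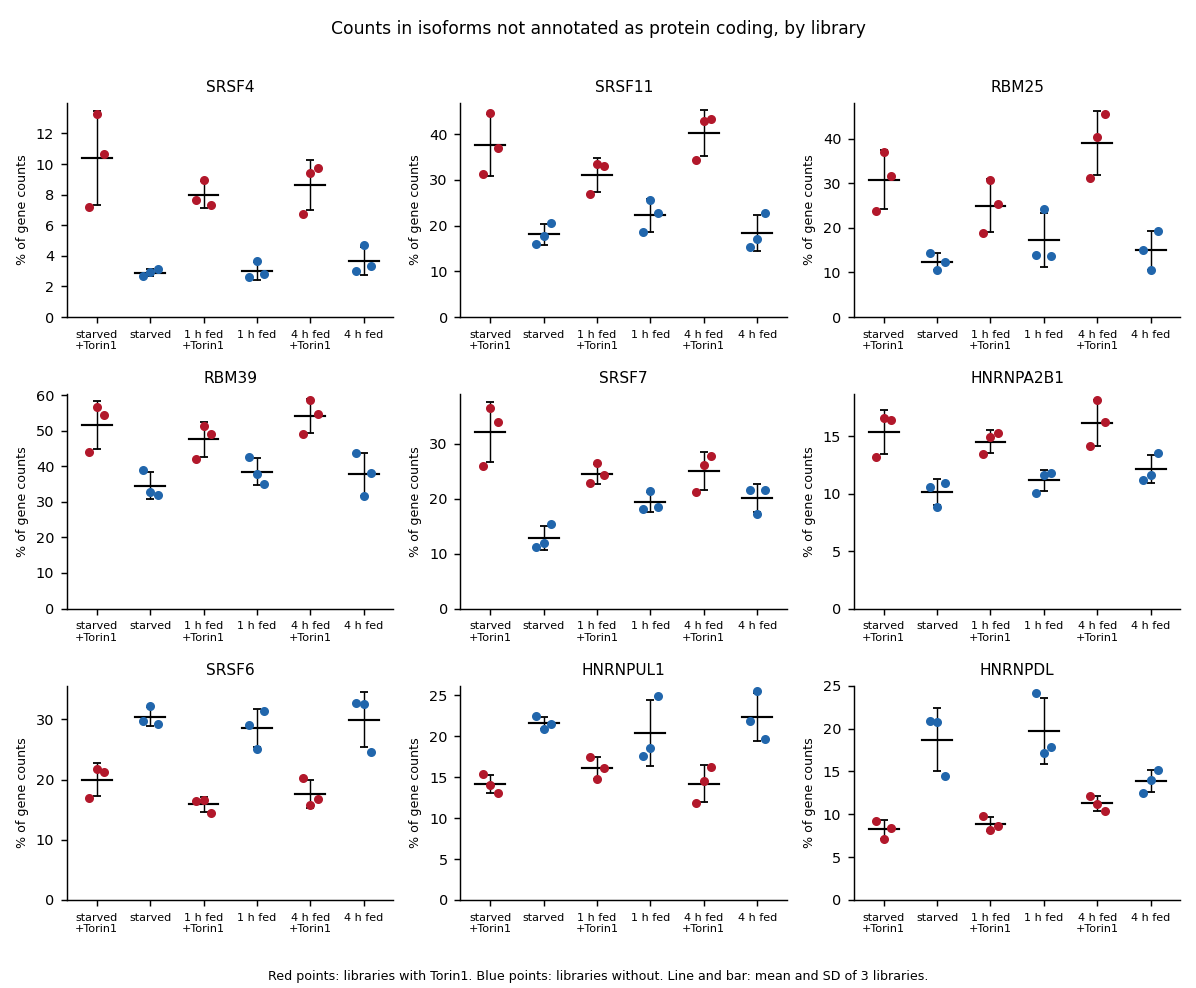
Non-coding share (vertical axes from 0, percent of the gene's isoform counts) of 9 genes in each library of the 6 groups, libraries with Torin1 left of those without; the line and bar are the mean and SD of 3 libraries. In SRSF4, SRSF11 and RBM25 starved libraries with Torin1 stand above those without it, and in SRSF6, HNRNPUL1 and HNRNPDL below them.

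Among the 16 hnRNP genes tested for the share, 2 were higher and 2 lower with Torin1 in starved cells. HNRNPA2B1 had 13.2%, 16.6% and 16.4% in starved cells with Torin1, against 10.6%, 8.85% and 10.9% without it, and was higher in all 3 states without overlap (edgeR adjusted p = 0.000116, 0.0181 and 0.0119). The 1 h and 4 h calls were lost by transcript length, with limma and with DESeq2, and the 1 h call also with decay isoforms counted as coding (adjusted p up to 0.481 at 1 h and 0.189 at 4 h over all alternatives). The 1 h call was lost without 1 h fed Torin1 replicate 2 or 3 or 1 h fed replicate 1 (0.0748 to 0.104), and the 4 h call without 4 h fed Torin1 replicate 2 or 4 h fed replicate 1 (0.112 to 0.189). The 5 isoforms with the 36-base exon that distinguishes the B1 from the A2 protein, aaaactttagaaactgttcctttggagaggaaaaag (chr7:26197831-26197866, minus strand, GRCh38), held 19.5%, 17.2% and 20.7% of counts with Torin1 in the 3 states, against 12.01%, 13.3% and 14.7% without it. Of these 5 isoforms, 2 keep a stretch of 2839 bases that spans the exon, among them the retained-intron isoform HNRNPA2B1-204. These 2 held 4.17%, 2.99% and 4.672% of counts with Torin1 in the 3 states, against 1.702%, 2.61% and 2.656% without it. Part of each sum is thus kept intron and not splicing of the B1 exon. The sums are a description and were not tested. HNRNPD, which binds AU-rich elements, had 6.40% ± 2.25 with Torin1 and 3.13% ± 0.42 without it in starved cells, and 7.79% ± 1.31 with Torin1 and 3.99% ± 0.79 without it in 4 h fed cells, mostly as the retained-intron isoform HNRNPD-210. Both HNRNPD calls were lost by transcript length and with limma (adjusted p up to 0.235 and 0.111), and by length the starved shares were 4.17% with Torin1 and 2.82% without it.

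HNRNPDL, a close relative of HNRNPD, had a lower share: 9.23%, 7.10% and 8.37% in starved cells with Torin1, against 20.8%, 20.8% and 14.5% without it. All of its non-coding counts were decay isoforms, and HNRNPDL-202 averaged 4.88 CPM with Torin1 and 34.4 CPM without it (adjusted p of the share = 1.18e-06). In 1 h fed cells its share was 8.84% with Torin1 and 19.7% without it (adjusted p = 1.67e-06), but in 4 h fed cells it was 11.3% and 13.9% and not called (0.318). HNRNPUL1 was lower in starved cells, at 14.2% ± 1.14 with Torin1 and 21.6% ± 0.78 without it (SD, n = 3 each; adjusted p = 0.0033), and in 4 h fed cells, at 14.2% with Torin1 and 22.4% without it. Both HNRNPUL1 calls rested on decay isoforms and were lost with these counted as coding (adjusted p = 0.637 and 0.662). HNRNPA1 held a non-coding share of 33.8% to 40.7% in the 18 libraries and was called with Torin1 in no state, and its decay isoform HNRNPA1-205 averaged 1341 CPM in starved cells with Torin1 and 769 CPM without it.

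Isoforms within the coding class also moved in hnRNP genes. HNRNPH1-204 had 139, 179 and 187 CPM in starved cells with Torin1, against 44.0, 31.6 and 114 CPM without it. The use of this isoform was called in all 3 states (edgeR adjusted p = 0.00125, 3.64e-08 and 4.81e-05), while the gene HNRNPH1 itself was lower in the fed states, calls lost with scaling by total counts. HNRNPAB-201 had 32.3, 56.7 and 36.4 CPM in starved cells with Torin1 and was at 0 in all starved libraries without it, at least 470-fold higher with 3 counts over the group as the floor. In 4 h fed cells without Torin1 it had 97.2, 1.48 and 85.7 CPM, so that replicate 2 stood apart. The coding isoform HNRNPAB-205 had 50.3, 45.95 and 50.6 CPM in starved cells with Torin1, against 196, 236.5 and 205 CPM without it (adjusted p of its use = 0.0392). HNRNPAB-201 and HNRNPAB-205 can share reads, so the 0 of HNRNPAB-201 may depend on how the authors' software assigned them. The 3 isoforms named here were chosen after their values were seen.

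In starved cells with Torin1 the share was higher in 3 of the 4 CLK genes. CLK1 had 51.8%, 77.6% and 76.2% with Torin1 in starved cells, against 26.0%, 31.7% and 47.0% without it. Decay isoforms held 32.6% ± 11.3 with Torin1 and 13.1% ± 6.37 without it, and retained-intron isoforms 35.4% ± 4.74 and 19.9% ± 5.57 (SD, n = 3 each). CLK2 had 51.3% ± 2.34 with Torin1 and 34.01% ± 4.54 without it, as processed transcripts, and CLK3 30.4% ± 5.37 with Torin1 and 15.8% ± 3.58 without it (edgeR adjusted p = 0.0493 and 0.027, and 0.0224 for CLK1). None of the 3 was called in the fed states, and the starved calls did not stand every omission: CLK1 and CLK3 lost theirs without starved Torin1 replicate 2 or 3 or starved replicate 1 or 2 (0.0862 to 0.15 and 0.0876 to 0.15), and CLK2 without any of 12 of the 18 libraries (0.05 to 0.154). All 3 calls were also lost by transcript length, that of CLK1 with decay isoforms as coding and in the fit of only the groups compared, that of CLK2 with a minimum of 50 counts, and that of CLK3 with limma. SRPK1 had lower shares, 4.03% ± 1.54 with Torin1 and 8.61% ± 2.93 without it in starved cells (adjusted p = 0.0323), and 2.56% and 7.41% in 1 h fed cells.

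RBM25 had a share of 23.8%, 37.0% and 31.7% in starved cells with Torin1, against 14.4%, 10.4% and 12.5% without it. With 4 h of feeding it was 31.2%, 40.4% and 45.5% with Torin1 and 15.0%, 10.6% and 19.2% without it. Groups were apart both times (edgeR adjusted p = 0.000498 and 0.000181), and nearly all of the share was retained intron. The retained-intron isoform RBM25-212 averaged 31.3 CPM in starved cells with Torin1 and 4.28 CPM without it, and 34.9 and 17.6 CPM in 4 h fed cells. The higher share thus went with a higher gene level in starved cells and a lower one in 4 h fed cells.

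RBM39 has 45 matched isoforms, 8 of them coding, and its isoforms changed place with Torin1. Its share was 43.9%, 56.7% and 54.3% in starved cells with Torin1, against 38.9%, 32.8% and 31.9% without it. In 4 h fed cells it was 49.0%, 58.5% and 54.6% with Torin1 and 43.6%, 31.5% and 38.0% without it. Libraries with Torin1 were higher without overlap (edgeR adjusted p = 0.0138 and 0.0364), while 47.5% with Torin1 against 38.5% without it in 1 h fed cells was not called (0.214). The starved call was lost without starved Torin1 replicate 2 or 3 or starved replicate 2 or 3 (0.0645 to 0.0774), and the 4 h call without 4 h fed Torin1 replicate 2 or 3 or 4 h fed replicate 2 or 3 (0.084 to 0.197), by transcript length and with limma. The summed decay share was 25.5% ± 0.89 in starved cells with Torin1 and 26.1% ± 4.28 without it, whereas the retained-intron share was 25.6% ± 7.87 and 8.03% ± 0.42 (SD, n = 3 each).

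Beside this even decay share, 2 exons of RBM39 with early stops moved in opposite directions. The 12 isoforms with the 73-base exon printed above held 30.96%, 43.1% and 43.5% of counts in starved cells with Torin1, against 16.7%, 12.5% and 10.8% without it. The 6 isoforms with the 72-base exon held 6.50%, 5.97% and 3.35% with Torin1, against 20.05%, 16.6% and 18.03% without it. In 1 h fed cells the 73-base exon averaged 34.9% with Torin1 and 18.2% without it, and the 72-base exon 6.29% with Torin1 and 15.4% without it. In 4 h fed cells the 73-base exon averaged 40.3% with Torin1 and 16.8% without it, and the 72-base exon 5.67% with Torin1 and 16.1% without it. No library with Torin1 overlapped one without it for either exon in any state. These sums over isoforms are a description and were not tested. RBM39-223, which keeps 1806 bases of intron around and including the 73-base exon, is among the 12. It alone held 17.05%, 13.08% and 14.36% of counts with Torin1 in the 3 states, against 4.918%, 6.956% and 5.654% without it. Part of each sum for the 73-base exon is thus kept intron and not splicing of that exon.

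Among single isoforms, RBM39-206 and RBM39-212 showed the same exchange. RBM39-206, with the 73-base exon, had 31.2, 7.29 and 25.5 CPM in starved cells with Torin1, 24.4, 19.2 and 33.7 CPM in 1 h fed cells with Torin1, and 33.2, 29.4 and 31.8 CPM in 4 h fed cells with Torin1. It was at 0 in every library without Torin1, which makes it at least 240-fold, 303-fold and 362-fold higher in the 3 states with 3 counts over a group as the floor (edgeR adjusted p of its use = 7.32e-14, 1.07e-14 and 1.09e-15). RBM39-216, which holds the same exon, did not follow it: it averaged 27.1, 22.4 and 19.4 CPM with Torin1 in the starved, 1 h fed and 4 h fed state, against 22.4, 30.2 and 35.0 CPM without it. RBM39-212, with the 72-base exon, had 13.4, 12.8 and 5.59 CPM in starved cells with Torin1, against 52.6, 49.4 and 52.7 CPM without it, and its use was called lower in all 3 states (adjusted p = 0.000345, 0.0251 and 0.001). The intron-keeping RBM39-223 averaged 44.3 CPM in starved cells with Torin1 and 14.4 CPM without it (adjusted p = 0.00475), and the main coding isoform RBM39-203 averaged 97.1 and 152 CPM. Estimates of isoforms that share most of their sequence depend on how the authors' software assigned shared reads, so an isoform at 0 is listed at 0 by that estimate.

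**Figure D5:**
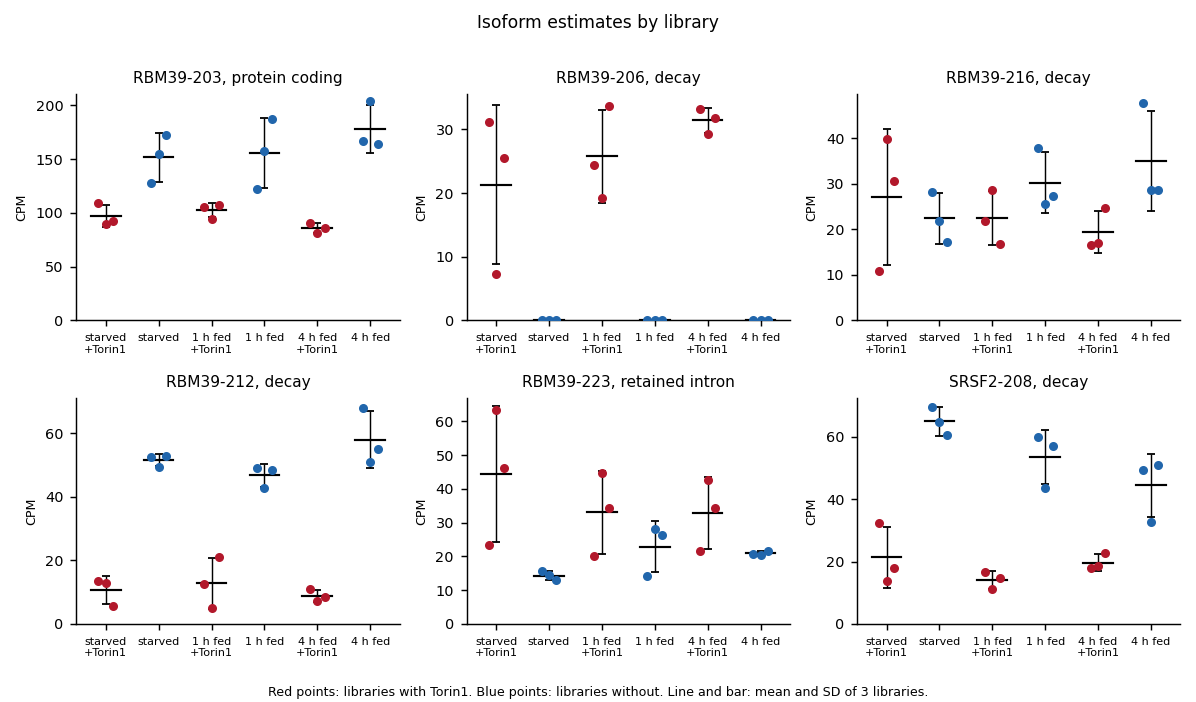
Isoform estimates in CPM (vertical axes from 0) of 5 RBM39 isoforms and SRSF2-208 in each library of the 6 groups, libraries with Torin1 left of those without; the line and bar are the mean and SD of 3 libraries. RBM39-206 is at 0 in every library without Torin1, and RBM39-212 and SRSF2-208 are lower with Torin1.

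Over all isoforms of the 52 genes, 396 were tested for use. With Torin1, 23 were called in starved cells against a background of 1.61% of 48663 isoforms, 18 in 1 h fed cells against 1.60%, and 7 in 4 h fed cells against 1.12%. Of the 23, 13 were not protein coding and 10 were, and of the 18, 8 and 10. With 4 h feeding 5 were called, against 0.407%: HNRNPA2B1-201, HNRNPAB-201, HNRNPU-210, HNRNPU-231 and SRSF7-204. In 4 h fed cells HNRNPA2B1-201 had 0, 0 and 7.74 CPM and HNRNPU-210 had 0.583, 6.84 and 0 CPM. Both were at 0 in every starved library, so each of these calls rested mostly on 1 library. For the share itself, 4 h feeding called SRSF7 higher and SRSF2 lower, against a background of 0.709%. The share was called in 0 genes with 1 h feeding (background 0%), 1 h feeding under Torin1 (0.0136%), 4 h feeding under Torin1 (0.0273%) and the interaction (0.0682%); unadjusted p were under 0.05 in 7, 6, 6 and 5 genes, and DESeq2 called SRSF7 in the interaction and no gene in the other 3.

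Other genes of the splicing machinery, in lists chosen with earlier results of these data known, had more falls than rises with Torin1 in starved and in 4 h fed cells. Over all genes 63.5% were called in starved cells and 56.0% in 4 h fed cells, and the lists of 7 to 14 genes are to be read beside these shares. Of 12 SR-related genes 8 fell and 2 rose in starved cells, and 10 fell and 0 rose in 4 h fed cells; SRRM1, a coactivator in nuclear speckles, fell by 0.83 and 0.98 and U2AF2, which binds the polypyrimidine tract, by 0.85 and 1.01 on the log2 scale. Of 12 genes of the U2 particle 9 fell and 1 rose in starved cells: SF3B3, a subunit of SF3B, rose by 1.08 ± 0.07, while SNRPA1, a protein of the U2 particle itself, fell by 1.33 on the log2 scale. All 7 Sm protein genes, whose products form the core of spliceosomal particles, fell in 4 h fed cells, and 5 fell and 1 rose in starved cells. Of 12 tri-snRNP and PRP19 complex genes 6 fell and 3 rose in starved cells. Of 9 hnRNP genes with other symbols 3 fell and 1 rose in starved cells, a smaller part than of all genes: PCBP2, a poly(C)-binding protein, rose by 0.73 ± 0.07 and PCBP1, its close relative, fell by 0.80 ± 0.07.

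Genes of nonsense-mediated decay and the exon junction complex, which remove or mark RNAs with early stops, also fell: 10 of 14 were lower and 1 higher with Torin1 in starved cells, and 11 lower and 1 higher in 4 h fed cells, with list medians of −0.73 and −0.67 beside 0.09 and 0.02 over all genes tested. UPF2, a core factor of the pathway, averaged 43.8 CPM in starved cells with Torin1 and 145 CPM without it (log2 fold change −1.72 ± 0.10, edgeR adjusted p = 1.97e-15). UPF3B fell by 1.46 and SMG5 by 1.31 on the log2 scale, and SMG8 was the exception at 0.81 ± 0.10. In 4 h fed cells SMG8 was lower with Torin1, by −1.07 ± 0.10. These levels stand beside the decay shares above; their part in those shares was not tested. Of 7 genes for import of SR proteins and for other kinases, 3 fell and 2 rose in starved cells, among them the import receptor TNPO3, which fell by 0.9996 on the log2 scale, and AKT1, a kinase that phosphorylates SR proteins, which rose by 1.32 ± 0.11.

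The 5 genes whose group means were most like those of SRSF4 across the 6 groups, among 11695 genes averaging 5 CPM or more, were TOMM40, MRM2, DDX19A, PRMT1 and PRPF4, with Pearson correlations of log2 CPM of 0.9997 to 0.999. This is a description over 6 points, and 20.4% of these 11695 genes had a correlation above 0.9 with SRSF4. PRPF4, a tri-snRNP protein, averaged 57.6 CPM in starved cells with Torin1 and 118 CPM without it.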

How the data were processed

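RNA was sequenced in 18 libraries. TRIzol extraction, DNase I treatment and 2-pass STAR alignment are named per the labels' protocols; RSEM and DESeq2 are named in the submitters' processing notes without versions. Although a C. elegans build is the one named in the labels, the tables carry human Ensembl identifiers; no human build, annotation or strand setting is given in the sources used here, so overlapping and antisense genes are uncertain. The gene and isoform tables deposited by the authors hold expected counts, that is, estimated counts per gene or transcript, not normalized; 3.32% of gene values were not whole, and the counts were rounded. HNRNPUL2 and its readthrough HNRNPUL2-BSCL2 can share reads.

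Of 227368 isoforms 205950 matched GENCODE release 29 and held 98.9% of isoform counts. Genes were kept by filterByExpr (minimum count 10), scaled with TMM (trimmed mean) factors and fitted in edgeR 4.0.16 (R 4.3.3) as 6 group means with robust quasi-likelihood tests, which left 12 residual degrees of freedom; the common coefficient of variation was 10.6%. Shares were tested with diffSpliceDGE on the summed non-coding and coding counts of each gene, and isoform use with the same test on all isoforms. Benjamini-Hochberg adjustment ran over all features tested in each of 8 comparisons, and any feature with an adjusted p under 0.05 was called. For an isoform at 0, the floor was 3 counts over the group, which covers counting error only. Tests were tried on simulated counts.

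Alternatives were DESeq2 1.42.0 size factors and Wald tests, total counts, limma 3.58.1 (limma-voom, and log2 ratios with 0.5 counts added), other filters (none, or 50 counts in at least 3 libraries), decay isoforms counted as coding, isoform counts divided by transcript length, a fit restricted to the groups compared, a block for replicate number, and leaving out each library. Shares from counts divided by transcript length were tested with limma on log2 ratios, not with the edgeR test. Isoform use was tested in 1 fit without alternatives. The genes and lists were chosen with earlier results of these data known. Named in full were SRSF4, RBM39, the 8 genes with the largest called change in each of Torin1 in starved cells, Torin1 in 4 h fed cells and 4 h feeding, at the gene level and for the share, their main coding and non-coding isoforms and that with the smallest p; others are given as examples, chosen after their values were seen.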

Additional observations from a re-analysis of the deposited data

Results flagged for a closer look

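In 16 of the 48 tested genes the response to 4 h of feeding with Torin1 differed from that without it by a test of the difference itself (edgeR interaction of 4 h feeding and Torin1, adjusted p under 0.05). Over all 16414 genes tested, 25.8% were called in the same way, 1599 with a higher and 2634 with a lower response under Torin1. On the log2 scale, the response under Torin1 minus that without it was −1.58 for RBM25, −1.13 for RBM5, −1.07 for SRSF8, −0.964 for HNRNPA1L2, −0.95 for CLK2, −0.857 for SRSF11, −0.614 for SRSF3, −0.569 for CLK1, −0.567 for RBM39, −0.427 for RBM10, −0.354 for HNRNPDL, −0.327 for TRA2B and −0.304 for HNRNPAB. It was 0.309 for HNRNPH2, 0.351 for SRSF7 and 0.565 for CLK4. The calls of CLK4, HNRNPAB and SRSF7 were lost without any of 8, 5 and 5 of the 18 libraries, with adjusted p up to 0.114, 0.098 and 0.0855. With DESeq2 size factors 13 of the 16 were called, and TRA2B, HNRNPDL and HNRNPAB were not; TRA2B and HNRNPAB were also lost with no filter.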

How the results depend on the processing

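Of 64 named gene-level calls 55 held in every alternative and 57 with each library left out, and none reversed; of 29 named share calls 9 held in every alternative and 18 with each library left out, and 1 reversed, that of SRSF2 in starved cells with decay isoforms counted as coding (0.27 on the log2 scale, against −0.91). For 4 h feeding under Torin1, DESeq2 called 1 of the genes (SRSF11), the fit of only the groups compared 1 (SRSF6), and the fit without a filter 2 (SRSF11 and SRSF6). For shares divided by transcript length, 9 were called in starved cells (5 higher, 4 lower) and 5 in 4 h fed cells (2 higher, 3 lower) with Torin1. For the share with 4 h feeding, 0 were called with decay as coding, by transcript length, by limma and by DESeq2, 1 (SRSF7) with 50 counts or more, and 1 (SRSF2) in the fit of only the groups compared. The share interaction called SRSF7 alone, 1 gene, with DESeq2's test or its size factors. With each library left out in turn, gene-level calls ranged from 35 to 39, 31 to 39 and 30 to 36 for Torin1 in the starved, 1 h fed and 4 h fed state, 0 to 2 and 17 to 23 for 1 h and 4 h feeding, 0 to 0 and 0 to 2 for these under Torin1, and 12 to 18 for the interaction. Share calls ranged from 9 to 16, 5 to 10 and 6 to 10 for Torin1, 0 to 0 and 0 to 2 for 1 h and 4 h feeding, 0 to 0 for both under Torin1, and 0 to 2 for the interaction. The 2 gene-level calls of 1 h feeding came without 1 h fed replicate 1, and the 2 share calls of the interaction without starved replicate 3. The causes were not tested.

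Replicate numbers were not taken as pairing the libraries, since not every pair with the same number had a correlation of gene-level deviations from group means above 0.1. Over 45 such pairs it ran from −0.108 to 0.162 with a median of 0.038, and 4 were above 0.1; over 90 pairs with different numbers the median was −0.020 and 2 were above 0.1. With the number as a replicate block, gene-level calls were 38, 39 and 35 for Torin1, 0 and 24 for 1 h and 4 h feeding, 0 and 2 (SRSF11 and SRSF6) for these under Torin1, and 18 for the interaction; share calls were 16, 11, 11, 0, 2, 0, 0 and 1 (SRSF7). The correlations are of gene levels and were not computed for shares. The retained-intron percentage was lowest in replicate 1 in every group but 4 h fed cells without Torin1. The isoform SRSF11-214 was lowest in replicate 1 in every group. Shares rest on a mean of 136 to 35963 counts per gene and library.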
